A study of Mus musculus with 2 samples.

Results

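The histone genes described here were the 67 protein-coding genes, of 21883 on chromosomes 1 to 19, X and Y of the GRCm38.p6 RefSeq table, whose symbol begins with a prefix of the clustered or linker histones (Hist1h, Hist2h, H1f, H2ac, H2bc, H3c or H4c). By type they were 10 H1 genes, 17 H2A genes, 16 H2B genes, 12 H3 genes and 12 H4 genes. On chromosome 13 lay 53 of them, on chromosome 3 lay 10, and 4 H1 genes stood alone. Open chromatin was measured by ATAC-seq, in which a transposase cuts accessible DNA, in mouse Stag3 KO GSCs. GSC is the label's term, which in this field stands for germline stem cells kept in culture. Their line is given as Acrosin-EGFP; beta-Actin-EGFP (AAG), and viable reporter-positive cells were sorted. STAG3 is a cohesin subunit best known from meiosis. There were 2 libraries, replicate 1 and replicate 2, in 1 group. Whether they came from separate cultures or clones is not given in the labels, so their spread may be technical. Wild-type cells were the stated partner of the comparison and were not analysed here, so nothing below is an effect of losing Stag3.

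Histones H2A, H2B, H3 and H4 form the protein core around which DNA is wrapped in the nucleosome, and H1 binds the linker DNA between cores. The clustered genes are made mostly in S phase. Their transcripts end in a stem-loop in place of a poly(A) tail, and NPAT drives their transcription from the histone locus body, a nuclear structure that gathers at the clusters. H1f0 and H1f10 are linker histones used outside S phase as well, H1f7 and H1f8 belong to late spermatids and oocytes, and H1f6, H2ac1 and H2bc1 encode the testis forms H1t, TH2A and TH2B of spermatogenic cells.

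The deposited lists held 107331 peaks in replicate 1 and 98986 peaks in replicate 2. Each peak has a fold enrichment at its summit over the local background, from which the tags, the caller's read count at the summit, were recovered together with the background. The median peak had 40 tags and a fold of 8.78 in replicate 1 and 41 tags and a fold of 8.73 in replicate 2. Read depth itself was unknown. Of 12 marker genes of undifferentiated spermatogonia, 12 had a peak shared by both libraries. Their folds ran from 35.8 and 35.2 at Gfra1 down to 4.08 and 2.79 at Nanos2. A shared peak also lay at 5 of 6 Sertoli, 2 of 5 Leydig and 5 of 6 fibroblast markers. It lay at 5 of 6 blood and endothelial markers, Pecam1 with folds of 31.5 and 30.8, and at 75.7% of all protein-coding genes. A peak near a gene is therefore no measure of its expression or of the cell type. Stag3, the targeted gene, kept a pair of shared peaks, the stronger with 417 and 422 tags. The deleted stretch of Stag3 is not given, so its peaks check nothing.

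Sequences between the starts of divergent genes are shown because the histone peak with the most tags lay in one. In such pairs an H2A and an H2B gene are read outward from a short common stretch. The capitals mark 3 short elements known from histone promoters, on either strand. They are CCAAT, bound by NF-Y, TATAAA, the TATA box, and ATTTGCAT, the octamer bound by OCT1 (POU2F1). Bases are from the RefSeq promoter table (GRCm38.p6), on the forward strand. The stretch of H2ac12/H2bc12, at chr13:22035644-22035820, held the most tags of all histone peaks. That of H2ac8/H2bc8, at chr13:23571221-23571399, belongs to the pair of median spacing, and that of H2bc1/H2ac1, at chr13:23934157-23934436, serves the testis forms. The stretches of H2ac15/H2bc15, at chr13:21753913-21754075, and of H2bc23/H2ac23, at chr13:21810200-21810366, held no shared summit.
H2ac12/H2bc12: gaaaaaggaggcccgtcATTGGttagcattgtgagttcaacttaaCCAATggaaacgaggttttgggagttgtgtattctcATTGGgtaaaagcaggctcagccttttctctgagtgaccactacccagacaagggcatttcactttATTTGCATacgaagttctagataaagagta
H2ac8/H2bc8: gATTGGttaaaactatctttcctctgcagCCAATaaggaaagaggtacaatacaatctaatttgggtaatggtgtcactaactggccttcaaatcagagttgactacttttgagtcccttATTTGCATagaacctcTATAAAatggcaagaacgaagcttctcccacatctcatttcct
H2bc1/H2ac1: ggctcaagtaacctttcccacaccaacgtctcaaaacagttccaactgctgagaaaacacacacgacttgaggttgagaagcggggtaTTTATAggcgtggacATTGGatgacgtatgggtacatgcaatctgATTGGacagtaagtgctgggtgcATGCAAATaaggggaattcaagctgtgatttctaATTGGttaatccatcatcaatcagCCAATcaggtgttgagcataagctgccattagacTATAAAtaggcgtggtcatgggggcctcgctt
H2ac15/H2bc15: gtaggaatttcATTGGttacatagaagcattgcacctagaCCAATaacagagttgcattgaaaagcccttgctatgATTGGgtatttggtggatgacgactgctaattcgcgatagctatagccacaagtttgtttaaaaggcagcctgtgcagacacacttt
H2bc23/H2ac23: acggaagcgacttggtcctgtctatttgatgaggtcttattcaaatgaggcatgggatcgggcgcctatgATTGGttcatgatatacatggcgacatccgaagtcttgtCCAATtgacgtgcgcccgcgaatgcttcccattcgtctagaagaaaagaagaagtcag

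For H1 and H4, which lack such pairs, the 150 bases before the listed start are shown on the gene's own strand. H1f2, at chr13:23738657-23738806 on the plus strand, had the H1 start-site peak of highest fold. H4c1, at chr13:23761250-23761399 on the minus strand, had the H4 start-site peak with the most tags. H4c3, at chr13:23698459-23698608 on the minus strand, had no peak in either library.
H1f2: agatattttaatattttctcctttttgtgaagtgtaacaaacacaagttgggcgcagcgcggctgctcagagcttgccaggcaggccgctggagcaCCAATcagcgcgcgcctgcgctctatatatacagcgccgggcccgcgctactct
H4c1: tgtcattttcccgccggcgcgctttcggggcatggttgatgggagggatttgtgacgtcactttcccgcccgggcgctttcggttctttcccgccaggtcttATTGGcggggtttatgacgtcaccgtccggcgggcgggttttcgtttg
H4c3: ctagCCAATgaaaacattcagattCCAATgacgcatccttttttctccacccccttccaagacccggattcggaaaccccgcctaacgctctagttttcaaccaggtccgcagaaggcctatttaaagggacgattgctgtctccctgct

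The first question was how many histone genes have open chromatin that both libraries show. A shared peak was a replicate 1 peak and a replicate 2 peak that overlapped by at least 1 bp and both reached within 1000 bp of the gene. Such a peak was found at 53 of 67 histone genes, 79.1% (95% Wilson interval 67.9 to 87.1, counting error only), against 75.7% of all protein-coding genes. Among protein-coding genes no longer than the longest clustered histone model, 37455 bp, the share was 67.5%. That limit does not match the histone genes in length, since H2ac13, for example, spans 448 bp. The histone interval holds the all-gene share, and its lower bound lies just above the share of the shorter genes. With only peaks at or above the median fold of their library, 56.7% of histone genes and 66.4% of all genes had one, so the order turned. Genes are not replicates, and no test was made. H2B had 14 of 16 genes with a shared peak, H3 10 of 12, H1 8 of 10, H2A 13 of 17 and H4 8 of 12. The intervals of all 5 types overlap.

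Many of these genes answer to the same peak. The 53 genes drew on 68 shared regions, of which 26 lay in reach of 2 or 3 histone genes, and 28 genes had a strongest region by fold that was also the strongest of another. For this reason types were compared on start-site peaks, the shared peaks whose summits in both libraries fell between 250 bases before and 50 bases after the listed start. Within 1000 bp of a listed start a shared peak lay at 49 of 62 histone genes, 79.0%, against 65.7% of protein-coding genes. The table lists a start for 62 of the histone genes, and not for H3c7, H2bc4, H3c1, H2bc21 and H4c14. A start-site peak was present at 41 of 62, 66.1% (53.7 to 76.7), against 44.5% of protein-coding genes with a listed start. These 41 genes shared 34 distinct peaks. The interval of this share lies above the background, with the limit that neighbouring genes share peaks.

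Start-site peaks of histone genes held more tags than those of other genes but had lower folds. Their median tag number was 276 in replicate 1 and 340 in replicate 2, against 159 and 179 for all genes with a start-site peak. Their median fold was 9.61 and 9.98, slightly above the median of all peaks but below the 17.4 and 18.7 of all genes with a start-site peak. The fold is the ratio of tags to local background, and the background had medians of 30.5 and 29.8 tags at histone starts and 8.68 and 9.20 tags at all starts. The peaks were also narrower, with median widths of 451 and 460 bp against 641 and 615 bp. In the strongest shared peak by tags of each gene, 41 of 53 histone genes were among the top 10% of peaks by tags in both libraries, beside 39.6% of all genes with a shared peak. In the same peaks 48 of 53 were among the top 10% by background in both libraries, beside 26.4%. Ranked by fold, the strongest shared peaks of histone genes had median percentiles of 60.9 and 64.2, beside 81.8 and 82.4 for all genes with one. H3c15 was highest, at 94.7 and 96.1. The background is the peak caller's estimate from reads around the peak.

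**Figure D1:**
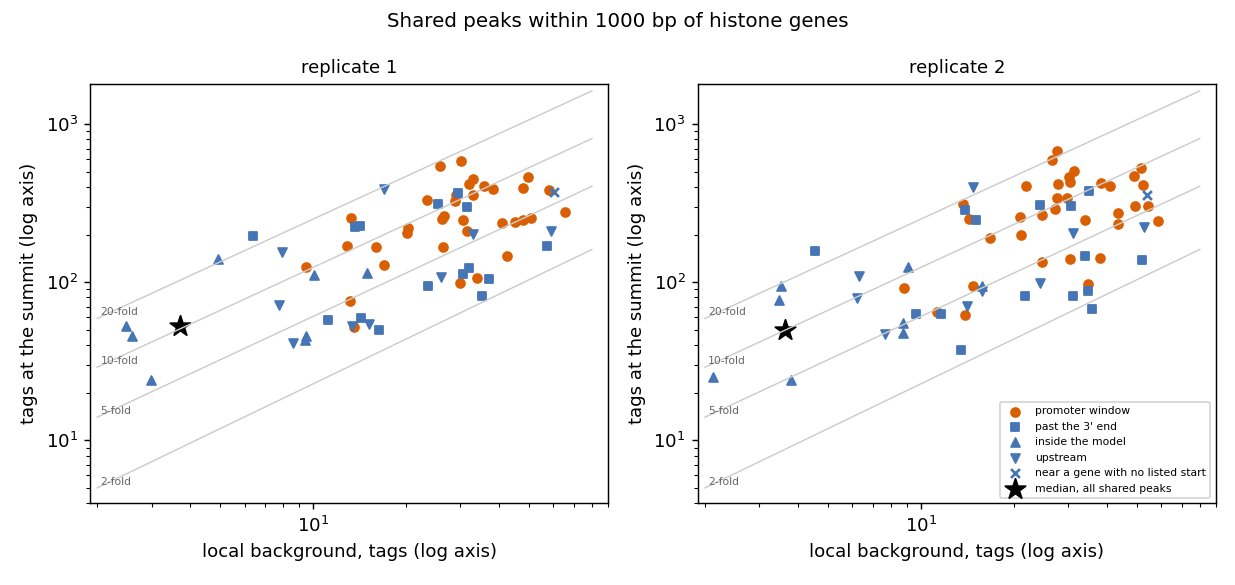
Tags at the summit (log axis) against local background in tags (log axis) for the 68 shared regions within 1000 bp of a histone gene, 1 panel per library. Grey lines mark equal fold and the star is the median of all 86286 shared peaks. Promoter-window summits (circles) lie to the right of the star, at tag numbers of 52 or more.

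Linker histone genes of the clusters varied widely. H1f2 had the highest H1 fold at its start, 18.0 in replicate 1 and 21.1 in replicate 2, with 256 and 310 tags. H1f1 had more tags, 385 and 412, but folds of only 6.55 and 7.75, over backgrounds of 57.9 and 52.3 tags. H1f5 had the lowest fold of the type at its start, with folds of 3.24 and 2.74 and 99 and 97 tags. In fold, though not in tags, these S-phase genes of 1 type spanned nearly the whole range of the histone starts. H1f3 had 250 and 266 tags, and H1f4 had 221 and 198 tags.

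The H1 genes outside the S-phase set differed among themselves. H1f10 had a start-site peak of 125 and 92 tags with folds of 11.98 and 9.49. H1f0 had none, but a shared peak inside its model held 115 and 94 tags, and a stronger one beyond its 3′ end held 228 and 249 tags with folds of 15.03 and 15.5. H1f7 and H1f8, the spermatid and oocyte genes, had no peak in either library. H1f6, which encodes the testis linker histone, had no summit in the promoter window, and a shared peak with its summits inside the gene held 111 and 125 tags. Its folds were 10.1 and 12.5.

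H2A and H2B genes had the strongest starts. The 12 H2A start-site peaks had median tags of 363.5 and 411.5 and median folds of 10.9 and 11.5. The 11 H2B start-site peaks had median tags of 391 and 418 and median folds of 10.5 and 11.1. Both types rest largely on the same peaks, since 7 of their peaks serve a divergent pair. The peak between H2ac12 and H2bc12 held 580 tags in replicate 1 (exact Poisson interval 534 to 629) and 678 in replicate 2 (628 to 731), with folds of 18.7 and 23.7. Next among the pairs, the peak between H2bc7 and H2ac7 held 465 and 526 tags, but over backgrounds of 49.8 and 51.8 tags its folds were 9.18 and 9.98. At H2ac6 the start held 446 and 503 tags. At the low end, the start of H2bc9 held 128 and 95 tags, fewer than every other H2A or H2B start in either library. The start of H2bc4, the S-phase neighbour of H2ac6, is not listed, and its strongest shared peak is the one at the start of H2ac6. For H2bc21 on chromosome 3 the strongest is the one at the start of H2ac20.

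Of 9 divergent H2A/H2B pairs, with 163 to 280 bp between their starts, 7 had a shared summit inside the stretch. The peak between H2bc1 and H2ac1, the testis TH2B and TH2A genes, held 333 and 405 tags with folds of 13.7 and 17.8. Their tag numbers lay among those of the S-phase pairs, which ran from 324 to 580 in replicate 1 and from 343 to 678 in replicate 2. The pair H2ac15/H2bc15 had no peak in its stretch, and its strongest shared peak, past the 3′ end of H2bc15, held 59 and 63 tags. Its printed stretch carries 3 CCAAT elements, as many as that of H2ac12/H2bc12. In the other pairs with a shared summit this number ran from 2 to 5, and H2bc23/H2ac23, also without one, had 2. A link between the number of elements and a peak was not tested.

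H3 starts were intermediate in tags and low in fold. Their median tags were 250.5 and 303 and their median folds 5.85 and 6.56, over the highest median backgrounds of the 5 types, 38.4 and 38.8 tags. H3c8 was the exception, with 544 and 589 tags and folds of 20.4 and 21.4, higher than the other 5 in both libraries. H3c2 was next with 356 and 429 tags, and the remaining 4 H3 starts, of H3c3, H3c4, H3c10 and H3c11, had folds between 4.95 and 7.12. H3c7 and H3c1 have no listed start. A shared peak inside the model of H3c7 held 389 and 400 tags with folds of 21.7 and 25.4, and one at H3c1 held 370 and 355 tags. H3c6 had a pair of shared peaks upstream of its start, the stronger with 155 and 109 tags. The weaker, with 72 and 79 tags, overlaps the promoter window, but only its replicate 1 summit falls inside, so it was not counted as a start-site peak.

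H4 starts had the lowest medians of the 5 types, in tags and in fold. The 6 H4 start-site peaks had median tags of 126.5 and 137.5 and median folds of 3.90 and 4.37. Every fold of these 6 lay between 3.07 and 6.11 in replicate 1 and between 3.67 and 5.37 in replicate 2. H4c4 is not among the 6, because the summit of its peak lies past the promoter window. That peak covers the listed start and held 300 and 305 tags, with folds of 9.27 and 9.70. Of the 6, H4c1 had the most tags, 276 and 245, over the highest background of any histone start, 65.6 and 58.4 tags. H4c6, with 166 and 134 tags, H4c2, with 147 and 142, and H4c9, with 106 and 141, lay between. H4c12 had 76 and 65 tags, and H4c11 had the fewest, 52 and 62. H4c8 had only an upstream shared peak, with 108 and 99 tags, which is out of reach when the distance to the gene is limited to 500 bp. H4c3, with no peak within 1000 bp, gains one at 2500 bp, as does H2ac19 among the H2A genes. In replicate 2 every H2A and H2B start had a higher fold than every H4 start, and in replicate 1 H2ac4, with 5.67, fell below H4c6, with 6.11. In tags the types overlapped, since H4c1 exceeded H2ac21 and H2ac20 in replicate 1. The median background of H4, 30.1 and 27.6 tags, was close to those of H2A, 31.0 and 27.7 tags, but H4 backgrounds ran from 13.2 to 65.6 tags in replicate 1. H4c1, for example, had 276 tags against 263 at H2ac10 in replicate 1, and 245 against 289 in replicate 2. Its fold was lower in both, 4.16 against 9.61 and 4.14 against 10.3. The difference between types was not tested, since the genes of 1 library are not replicates of a condition.

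**Figure D2:**
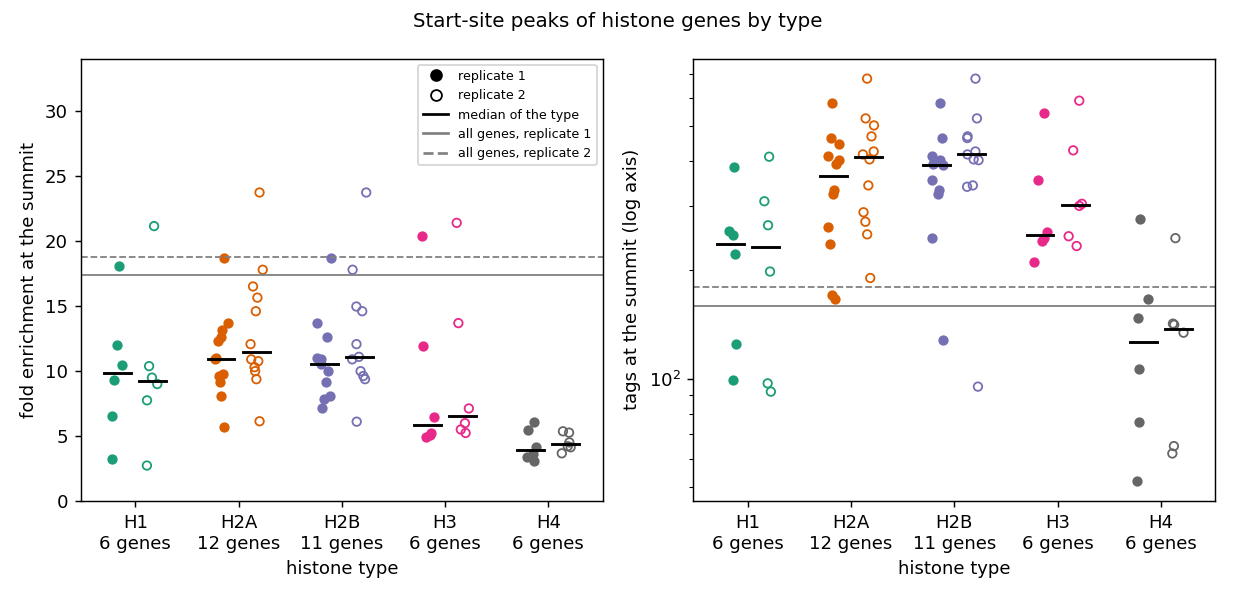
Fold enrichment at the summit (left) and tags at the summit (right, log axis) of the start-site peaks of 41 histone genes by type. Each point is a gene in 1 library (filled, replicate 1; open, replicate 2), black bars are medians of the type and grey lines the medians of all 7791 genes with a start-site peak. No H4 start-site peak has a fold above 6.11, and all types sit below the grey lines in median fold.

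The place of the summit also differed between types. With negative distances upstream, summits of H2A lay at a median of -85.25 bp from the listed start and those of H2B at -82 bp, which for divergent pairs is inside the common stretch. H3 summits lay at a median of -51.25 bp, H4 summits at -10.5 bp and H1 summits at -2 bp. All H2A, H2B and H3 summits were upstream of the start, the nearest at -22.5 bp. The distances depend on the listed starts, which were taken from the table and not measured. They are also bounded by the promoter window, which reaches 250 bases before the start but only 50 after it and so favours upstream summits. Genes with shared summits only outside it, such as H4c4, H1f6 and H1f0, are left out of these medians.

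**Figure D3:**
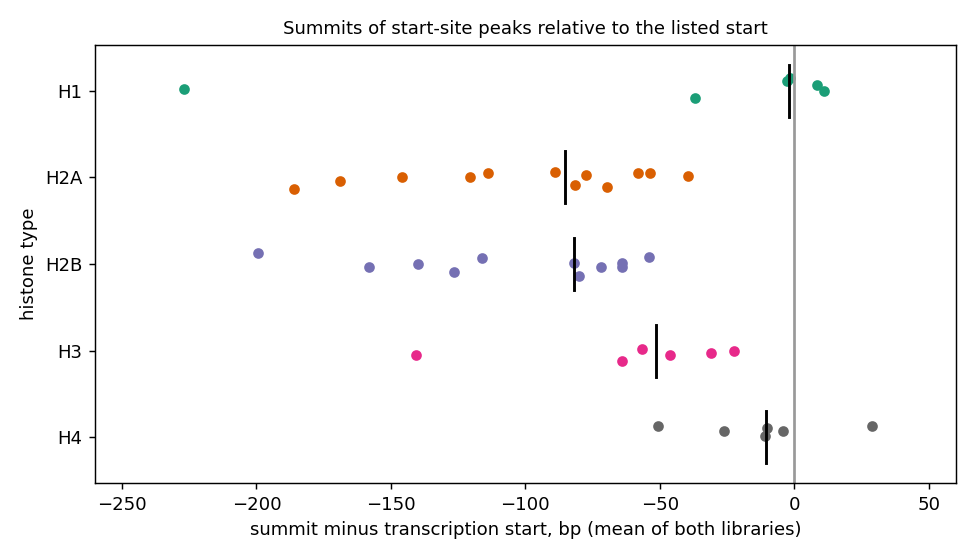
Distance in bp from the listed start to the summit of each start-site peak (mean of both libraries), by histone type, with negative values upstream and bars at the medians. H2A and H2B summits spread from -199.5 to -39.5 bp, and H4 summits from -50.5 to 29 bp.

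The elements in the promoters also differed by type. In the 300 bases around the start, CCAAT on either strand was found in 52 of 63 histone promoters, 82.5%, against 38.2% of 21262 protein-coding promoters. H2bc6 has 2 listed promoters. CCAAT was in 17 of 17 H2A, 15 of 15 H2B and 10 of 10 H3 promoters, in 7 of 10 H1 promoters and in 3 of 11 H4 promoters. TATAAA was in 34 of 63, 54.0% against 12.6%, and most often in H4, with 8 of 11. On the gene's own strand, the match nearest before the start began 26 to 33 bp from it in 4 H1 promoters and 30 to 42 bp from it in 6 H2A promoters. The other H2A promoters among the 11 with TATAAA had no match before the start on that strand. In H4 the match began 32 bp from the start of H4c4, but at distances from 2 to 250 bp in H4c6, H4c9, H4c11, H4c12, H4c17 and H4c18. H4c1 had no such match. Such scatter was not particular to H4. In H3 the distances were 29 bp at H3c2, 31 bp at H3c10, 147 bp at H3c11 and 161 bp at H3c4. In H2B they were 10 bp at H2bc3, 43 bp at H2bc8 and 94 bp at H2bc1. The other H2B promoters among the 7 with TATAAA had no such match. ATTTGCAT was in 13 of 63, 20.6% against 1.66%, all of them H2A (6 of 17) or H2B (7 of 15). CACGTG, the E-box searched for comparison, was in 0 of 63 and in 7.84% of all promoters. No motif contains another, and a divergent pair counts its elements for both genes. Among histone promoters with a shared peak near the gene, CCAAT was in 42 of 50 and TATAAA in 31 of 50. Among those without, CCAAT was in 10 of 13 and TATAAA in 3 of 13, those of H2ac18, H4c17 and H4c18. These 3 are among 8 of the 13 whose sequence largely recurs at another listed promoter, as described below. The 50 and the 13 are therefore no contrast of open with closed chromatin. A match is a description of letters, and says nothing of binding.

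By position, the chromosome 13 cluster had a shared peak at 47 of 53 genes, 88.7% (77.4 to 94.7), against 75.7% of all protein-coding genes. The chromosome 3 cluster had one at 4 of 10, 40.0%, with a wide interval of 16.8 to 68.7. The chromosome 13 genes fall into a pair of blocks more than 1 Mb apart. The block at chr13:21715711-22043658 had 17 of 22 genes with a shared peak and the block at chr13:23531044-23934913 had 30 of 31. Start-site peaks were found at 38 of 50 genes on chromosome 13, 76.0% (62.6 to 85.7), against 44.5% of protein-coding genes with a listed start. On chromosome 3 they were found at 2 of 8, 25.0% (7.15 to 59.1), an interval that holds this background. Those on chromosome 3, at H2ac21 and H2ac20, had 170 and 251 tags and 166 and 190 tags, below the chromosome 13 medians of 324 and 343. Their backgrounds, between 12.9 and 16.8 tags, were also below the chromosome 13 medians of 31.8 and 30.3 tags. Their folds of 9.80 to 16.5 were therefore no lower than the chromosome 13 medians of 9.22 and 9.98. H4c14 was the only histone gene with a peak in 1 library, a replicate 1 peak of 20 tags 650 bp from the gene, which covers chr3:96262037-96262284.

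**Figure D4:**
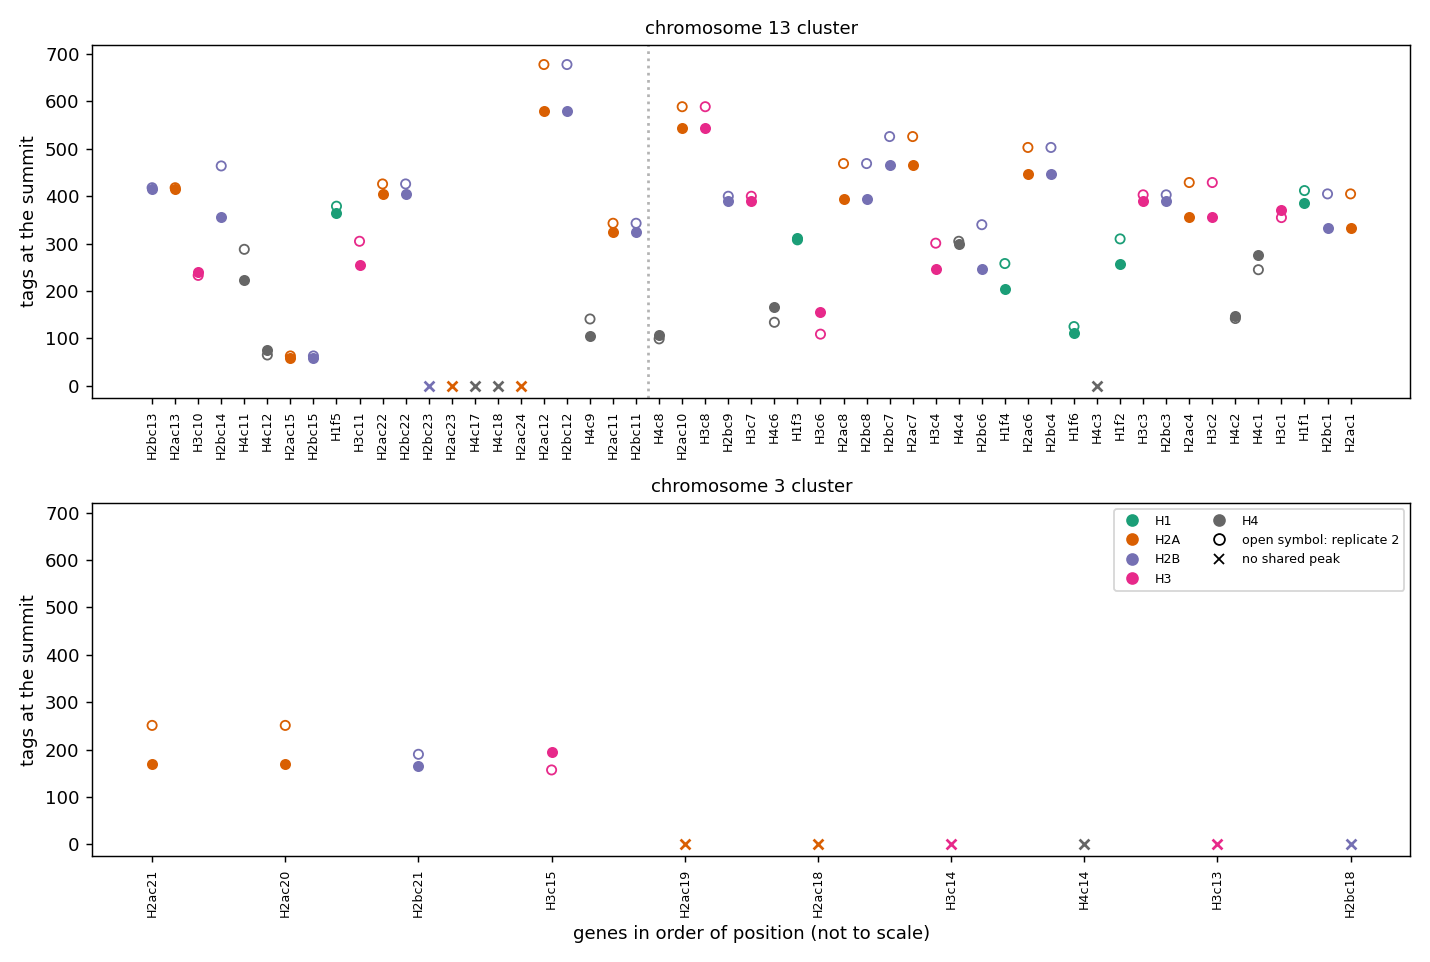
Tags at the summit of the strongest shared peak by tags of each clustered histone gene, in order along chromosome 13 (top, dotted line between the blocks) and chromosome 3 (bottom). Filled symbols are replicate 1, open symbols replicate 2 and crosses genes with no shared peak. Crosses form 1 run of 5 genes in the first block of chromosome 13, stand at H4c3 in the other block and take the 6 genes on the right of chromosome 3, and neighbours with equal values share a peak.

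The genes with no peak lay mostly among near-identical copies. No peak in either library was found at 13 histone genes. These were H2bc23, H2ac23, H4c17, H4c18, H2ac24 and H4c3 on chromosome 13, H2ac19, H2ac18, H3c14, H3c13 and H2bc18 on chromosome 3, and H1f7 and H1f8. For 9 histone genes at least 50% of the 50-base stretches of the promoter recur exactly at another listed promoter. These shares were 100% at H2bc23, 94.0% at H4c17 and H4c18, 86.9% at H2ac23, 74.1% at H3c14 and H3c15, 73.3% at H2ac24, and 67.7% at H2ac18 and H2ac19. Of these 9 genes 0 had a start-site peak, beside 41 of the other 53 with a listed start. Within 1000 bp, 1 of the 9 had a shared peak, H3c15, and 48 of the other 53 did. Without them the share with a shared peak was 89.7% over all histone genes and 97.9% on chromosome 13, with 13 of 13 for H2A, but 3 of 6 on chromosome 3. How reads that fit several places were treated is not given in the sources used here. A missing peak at these 9 genes is therefore no sign of closed chromatin, and the part of read placement in it was not tested. H4c3, H3c13, H2bc18, H1f7 and H1f8 had no peak without such recurrence.

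Several histone genes were open beyond their 3′ end. Shared summits up to 1000 bp past the end, in no listed promoter window, were found at 14 of 62 genes, 22.6% (14.0 to 34.4), against 4.59% of protein-coding genes. H4 had 4 of 11, H1 3 of 10, H3 3 of 10, H2B 2 of 14 and H2A 2 of 17. At H1f5 the peak 358 bp past the end held 365 and 379 tags with folds of 12 and 10.6, more than the 99 and 97 tags at its start. H4c11 was alike, with 223 and 288 tags 63 bp past its end and 52 and 62 tags at its start. For both genes the tag intervals of the end and the start do not overlap in either library. At H1f3 the peak 406 bp past the end held 312 and 308 tags, against 250 and 266 at the start. The peak of H4c4 covers the whole gene, and its summit, 83.5 bp past the end, held 300 and 305 tags. H3c15 had the highest fold of any histone gene, 26.5 and 28.4, at a summit 272.5 bp past its end, with 195 and 157 tags over backgrounds of only 6.40 and 4.56 tags. The peak beyond H1f0 did not meet these limits of distance and promoter window and is not counted among the 14. It therefore need not belong to H1f0. The other 9 such peaks had folds of 1.87 to 5.99. The lowest, at H4c9, stood at fold percentiles of 0.0391 and 0.00303 among all peaks of its library. The peak past H2ac13 was also in reach of H2bc13 and H3c10. The share of 4.59% was not matched for the length or spacing of genes. Start sites that the table does not list were not looked for.

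Where the libraries had overlapping peaks, these lay close together. The 68 shared regions were chosen for that overlap, which favours close summits, and peaks without a partner are left out. Within 1000 bp of H2ac22, for example, lay 4 peaks of replicate 1 and 1 peak of replicate 2. Summits of the 68 shared regions were a median of 12.5 bp apart, with 67 within 100 bp. The ratio of replicate 2 to replicate 1 tags ran from 0.543 to 1.63, and 44 regions had more tags in replicate 2. Its median was 1.06, beside 1.00 over all 86286 shared peaks. In 7 of the 68 the Poisson intervals of the tags did not overlap. The same share over all shared peaks was not computed, so the 7 are not read as a trait of histone genes. The starts of H2bc14, with 356 and 464 tags, and of H2bc6, with 246 and 340 tags, were among the 5 that were higher in replicate 2. The peaks near H3c6, with 155 and 109 tags, and inside the long model of H2bc6, with 141 and 94 tags, were lower in it. That peak of H2bc6 had folds of 23.99 and 21.0, over backgrounds of 4.92 and 3.52 tags. The tag intervals cover counting error only, because amplified copies are not independent.

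Genes that make, process or place histones were compared from lists of textbook members. Of the histone expression machinery, 19 of 19 matched genes had a shared peak, beside the 75.7% of all protein-coding genes. Folds were 32.3 and 32.2 at Lsm10, a subunit of the U7 snRNP that cuts histone transcripts, 29.0 and 30.2 at Nfyc, a subunit of the CCAAT-binding NF-Y, and 24.4 and 25.8 at Hinfp, which binds H4 promoters. All 15 histone chaperones had one, led by Ubn1, with 24.1 and 25.6, and Cabin1, with 21.6 and 22.5, both subunits of the HIRA complex that places H3.3, and by Nap1l1, an H2A and H2B chaperone, with 19.5 and 24.1. Of histone genes outside the prefixes, 11 of 16 matched had a shared peak, which is near that share. The highest were Macroh2a1, with 30.9 and 33.9, Cenpa, the centromeric H3, with 30.4 and 32.0, and H2az2, with 21.1 and 23.4. H3f3c, H4f16, H2bl1, H2al2a and H2ab1 had none. By median percentile of fold among all peaks of a library, the machinery stood at 85.1, the chaperones at 84.4 and the histone genes outside the prefixes at 82.1. The same median was 61.7 for the 67-gene set, over its 53 genes with a shared peak, and 81.9 for all genes with one. Among genes no longer than the longest clustered histone model it was 78.5. Each value is of the strongest shared peak anywhere within 1000 bp of the gene, so long genes with many peaks are favoured. It need not lie at the start. Macroh2a1, with 6 shared peaks, had no start-site peak, while Cenpa and H2az2 had one. Below the all-gene median lay 8 of the 19 machinery genes, with Ccne1 lowest at folds of 7.93 and 7.39, and 5 of the 15 chaperones, with Hjurp lowest at 7.75 and 12.4. Of the 11 other histone genes, 5 lay below it, with H2az1 lowest at 14.0 and 14.7.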

How the data were processed

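ATAC-seq peaks of 2 libraries of 1 group were analysed. Per the submitters' processing notes, MACS2 2.1.1 and Bowtie2 2.3.4.1 were among the tools, as were Trim Galore, deepTools 3.5.0, bedtools 2.29.2 and Picard 2.18.23. The notes give mm10 and GRCm38.p3 as builds. Settings, a shift of reads for the transposase cut, and the treatment of duplicates and of reads that fit several places are not given in the sources used here. They can move summits and empty repeated promoters.

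The deposited lists, 1 per library and so not pooled, give each peak a fold enrichment, which is a ratio over the local background made by the authors' peak caller. They also give the −log10 p-value and −log10 q-value that the authors deposited. The deposited score was not used. Tags were recovered by solving the caller's formulas, with 1 added to tags and to background in the fold and a Poisson upper tail for the p-value. A whole number solved both within a relative tolerance of 1e-05 plus 0.0001 for 100% of peaks in each library. Fold was used to rank peaks within a list only.

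Gene positions and promoters came from the GRCm38.p6 RefSeq tables, whose chromosomes share the coordinates of the peaks' build. They were joined with Python 3.11.15, pandas 2.3.3 and scipy 1.17.1, and the joins and the tag recovery were tested on simulated data. Intervals on shares are 95% Wilson intervals and those on tags exact Poisson intervals. They cover counting error only. With 1 group there was no contrast and no test. Per histone type and per cluster the rule named the 3 genes of highest and the 3 of lowest mean percentile of fold. It also named genes without a shared peak, genes outside the clusters and, in each list, the genes without a peak and the 3 highest. Other genes were named after their values were seen, to show the range of a type. The histone genes and all lists were chosen with earlier results of these data known. Symplk and H2bw2 were not matched. Start-site peaks, recurring promoters and the rankings by tags and by width were added after the data were seen.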

Additional observations from a re-analysis of the deposited data

How the results depend on the processing

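Over changes of the distance, overlap, fold and q-value limits, of the background genes and of the libraries, 7 planned values moved beyond their interval or, for the median percentile, beyond the SD between libraries. The other 83 did not, and among them the change of background genes cannot move a value. Of the alternatives added after the data were seen, 8 values moved and 14 did not. With only peaks at or above the median fold of their library, the share of histone genes with a shared peak was 56.7%, against 66.4% of all genes, with 60.4% on chromosome 13, 50.0% for H3 and 16.7% for H4. That limit alone moved the share over all genes from above its background to below it. Among the alternatives added later, requiring both summits in the promoter window gave 66.1% over all and 76.0% on chromosome 13. Leaving out genes with recurring promoters gave 89.7% over all, 97.9% on chromosome 13 and 100% for H2A. The median percentile of fold, 61.7, was 59.1 around listed starts, 69.4 with peaks at or above the median fold and 55.4 in the promoter window. Ranked by tags it was 97.5, above the 87.6 of all genes, and by width 81.4, below their 89.9, so the place of the histone genes in the ranking turns on the measure. Leaving out 1 library gave medians of 60.5 to 64.2 and shares of 79.1% and 80.6%. No paired analysis was possible because there was only 1 group. Read depth was unknown, so a missing peak could not be told from too few reads.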
